A study of Mus musculus with 12 samples.

Results

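The Mir-17 family was followed across 12 hippocampal small RNA libraries, each from a male wild-type (WT) mouse of the C57BL/6J strain. Members were all rows whose first name element was Mir-17 or began with Mir-17-, on any arm. This gave 9 of the 513 rows of the table, and they come from 6 hairpins. The exercised lineage comprised 6 mice of the F2 generation whose grandfathers, on the paternal line, had exercised. The sedentary lineage comprised 6 F2 mice of sedentary grandfathers. The labels name no treatment of the F2 mice themselves and give no age. The study compared these lineages to profile miRNAs in the grandsons of exercised and of sedentary males.

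MicroRNAs are short RNAs that guide Argonaute proteins to partly matching messenger RNAs and lower their output. Target choice rests mainly on the seed, bases 2 to 8 counted from the 5′ end. One arm of each hairpin, the guide, is usually kept, and the other, the passenger, is mostly degraded. The Mir-17 family is known for promoting proliferation. MYC and E2F factors activate its clusters, and its targets include the cell cycle inhibitor Cdkn1a and TGF-beta signalling genes. In the brain it is associated with neural progenitors, and its level is low in mature neurons.

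Mature sequences from RefSeq (GRCm38.p6) are shown because the seed defines the family and because one member departs from it. All 9 mature RNAs named here matched an entry. Capitals mark the seed.
miR-17-5p: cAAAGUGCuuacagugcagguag
miR-20a-5p: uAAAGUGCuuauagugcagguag
miR-20b-5p: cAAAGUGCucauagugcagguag
miR-93-5p: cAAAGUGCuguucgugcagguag
miR-106b-5p: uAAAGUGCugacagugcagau
miR-18a-5p: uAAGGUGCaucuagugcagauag
miR-17-3p: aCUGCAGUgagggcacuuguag
miR-93-3p: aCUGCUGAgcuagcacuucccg
miR-106b-3p: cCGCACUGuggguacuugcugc

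The first 5 of these share the seed AAAGUGC. miR-18a-5p has the seed AAGGUGC, which differs from that of miR-17-5p by A4G, with positions counted from 1 at the 5′ end. The 3 passenger arms each carry a seed of their own. miR-17-5p, miR-20a-5p and miR-20b-5p differ from one another by 2 of 23 bases in every pairing, all outside the seed. How reads that match several of these were assigned is not given in the sources used here, so the split among those 3 is uncertain. miR-17, miR-20a, miR-20b and miR-93 end in the same 8 bases, gcagguag, while miR-18a ends in gcagauag and miR-106b in gugcagau.

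Row names follow MirGeneDB, in which P and a number mark a paralogue and an asterisk the passenger arm. From general knowledge of that scheme, since the table itself pairs no row with a miRNA number, P1a, P2a and P3a were taken as miR-17, miR-18a and miR-20a, and P3b as miR-20b. The first 3 of these genes lie together on the plus strand of chromosome 14 in mm10, at 115043671 to 115043754, 115043851 to 115043946 and 115044157 to 115044263, where each overlaps an exon of the long noncoding host gene Mir17hg. Mir20b lies at 52742113 to 52742192 on the minus strand of chromosome X, with no other annotated gene around it on that strand. P4 and P5 were taken as the remaining pair, miR-106b and miR-93. Which number is which was not settled, so they keep their row names. Both of their genes lie within Mcm7, which encodes a subunit of the replicative helicase, on the minus strand of chromosome 5. Mir106b (138165737 to 138165818) is intronic, and Mir93 (138165523 to 138165610) overlaps an exon of at least 1 annotated transcript.

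Libraries held 6862623 to 10219856 reads, of which 2004 to 3622 fell on the family. Levels are given as normalized counts, that is, reads after division by a size factor common to all arms of a library. F2_exercised replicate 1 stood apart. Its median absolute log2 deviation from the mean of the other libraries was 0.403 over the 474 tested arms, against 0.145 to 0.250 in the other 11. Markers of neurons, such as Mir-124 and Mir-128, were present in every library, with a summed level of 639664 to 804369 for the exercised lineage and 699103 to 974824 for the sedentary lineage. F2_exercised replicate 1 had the lowest sum of all 12 libraries for the neuron list (639664), for the microglia and leukocyte list (8539) and for the muscle list (3096), and the highest for the astrocyte-enriched list (126654). Its total over all arms was also the lowest, at 6458450 normalized counts against 7793640 to 9370390 in the other 11. The list sums were not divided by these totals. Erythroid markers summed to 631 to 838 for the exercised lineage and 733 to 1219 for the sedentary lineage, with 4 of 5 arms lower in the exercised lineage and 0 called. The choroid plexus and ependyma list summed to 49025 to 203970 and 46564 to 200048, and 10 of its 12 arms were lower in the exercised lineage with 0 called. All 4 mural arms and 3 of 4 muscle arms were also lower, with 0 called. Higher in the exercised lineage were 12 of 21 neuron arms, 6 of 11 microglia and leukocyte arms and 3 of 5 oligodendrocyte arms. So were 2 of 6 astrocyte-enriched and 1 of 2 endothelial arms, with 0 called in each list. Over all 474 tested arms 49.8% were higher and 0 were called. The part of these differences in the results below was not tested. In whole tissue, fewer cells of a type and less RNA per cell cannot be told apart.

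The family was a minor part of the hippocampal profile, and 1 arm, Mir-17-P5_5p, made up the greatest part of it. That arm ranked 154th of 513 rows by mean. The 9 arms together summed to 2753 ± 424 in mice of the exercised lineage, against 2534.5 ± 190.2 in those of the sedentary one (normalized counts, SD, n = 6 per lineage). That sum was 0.0338% ± 0.00287 of all normalized counts for the exercised lineage and 0.0296% ± 0.00285 for the sedentary lineage. The share ran from 0.0306% to 0.0383% and from 0.0274% to 0.0351%, so the lineages overlapped, and 6 of 6 exercised-lineage libraries lay above the sedentary median. A share rests on the library totals, which also shift other arms. With libraries scaled to equal totals, the median log2 fold of all tested arms, exercised minus sedentary, was 0.085 in place of -0.0013. The difference of 0.00421 percentage points is given with no test, because it sums over chosen members. Left-out values, with each library removed in turn, ran from 0.00330 to 0.00533.

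Levels of the 9 arms fell into 3 tiers. Mir-17-P5_5p stood alone at the top with 1201 ± 212 normalized counts (SD, n = 12). Next came Mir-17-P4_3p* with 466 ± 55.7, Mir-17-P3a_5p (miR-20a) with 338 ± 75.2, Mir-17-P4_5p with 310 ± 66.7 and Mir-17-P1a_5p (miR-17) with 245 ± 49.0. The lowest tier held Mir-17-P1a_3p* with 34.3 ± 12.8, Mir-17-P5_3p* with 21.1 ± 7.23, Mir-17-P2a_5p (miR-18a) with 18.2 ± 6.30 and Mir-17-P3b_5p (miR-20b) with 11.1 ± 5.39. Each arm was compared with the next in order within libraries, by an exact sign-flip permutation test (two-sided, Benjamini-Hochberg over 8 pairs). Mir-17-P3a_5p and Mir-17-P4_5p did not differ beyond their spread (mean log2 ratio 0.11, SD 0.55, higher in 8 of 12 libraries, exact permutation p = 0.512, adjusted 0.512). Neither did Mir-17-P5_3p* and Mir-17-P2a_5p (0.21, SD 0.48, 8 of 12 libraries, exact permutation p = 0.158, adjusted 0.181). The other 6 neighbouring pairs differed, with adjusted exact permutation p from 0.00130 to 0.00781. Order and pairs were set by the means of these same libraries, so the p-values give no separate support to the tiers. The gap between the middle and the lowest tier, from Mir-17-P1a_5p to Mir-17-P1a_3p*, was 2.84 log2 (SD 0.61). Tiers are of counts, and how evenly different sequences were captured was not tested.

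**Figure D1:**
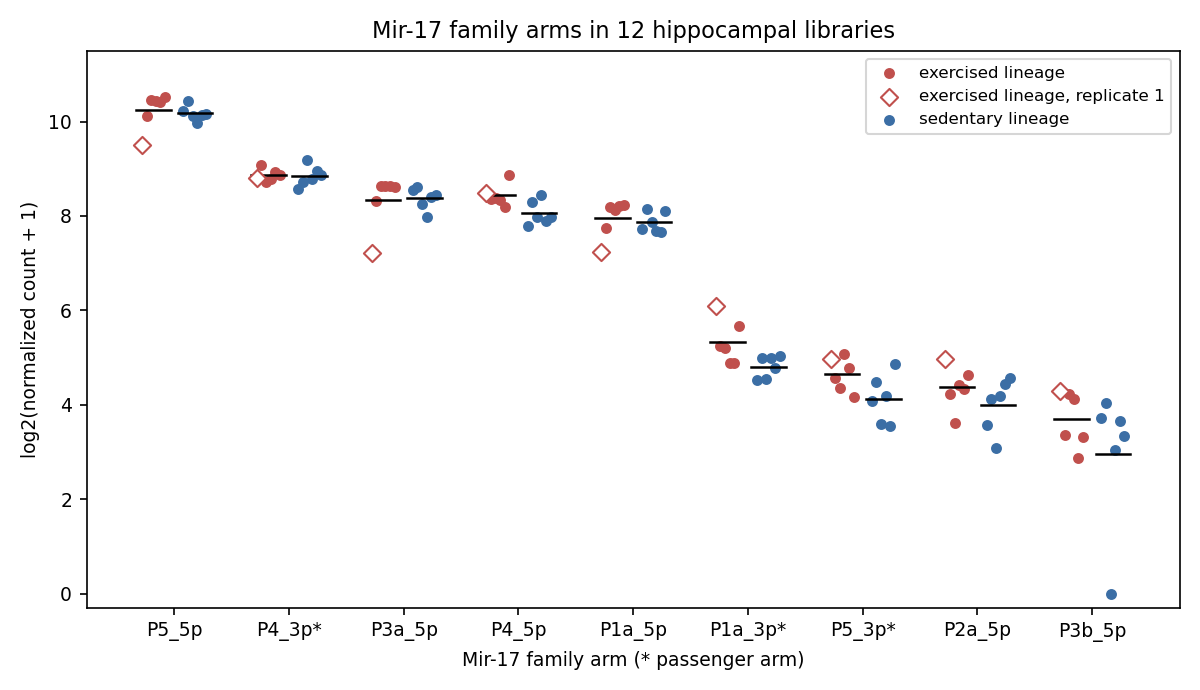
Normalized counts of the 9 Mir-17 family arms, as log2(normalized count + 1), in 6 exercised-lineage and 6 sedentary-lineage libraries; points are libraries, bars are means, and open diamonds are F2_exercised replicate 1. The diamond is lowest of all 12 libraries for P5_5p, P3a_5p and P1a_5p and highest for P1a_3p*, P2a_5p and P3b_5p, and the lineages overlap for every arm.

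No arm of the family met the adjusted threshold between the lineages. With limma over 474 arms, 0 of 9 members had a Benjamini-Hochberg adjusted p below 0.05, where the background is 0% of all tested arms (0 of 474). Before adjustment, p was below 0.05 for 2 of 9 members, Mir-17-P4_5p and Mir-17-P1a_3p*, both with a fold above 0, against 7.17% of all tested arms in either direction and 3.59% higher in the exercised lineage. Folds are differences of mean log2(value + 1), taken as exercised minus sedentary, a scale that understates differences of low values. The fold was above 0 for 8 of 9 members, against 49.8% of all tested arms. Without F2_exercised replicate 1 it was above 0 for 9 of 9, and without the R41 libraries, described below, for 6 of 9. The median fold was 0.37 over the members and -0.00 over all tested arms. The lowest tier held the largest folds, 0.74 for Mir-17-P3b_5p, 0.53 for Mir-17-P5_3p*, 0.52 for Mir-17-P1a_3p* and 0.38 for Mir-17-P2a_5p. In the upper tiers the fold was 0.37 for Mir-17-P4_5p and between -0.04 and 0.09 for the rest. Some arms varied together, as given below, so the members are not independent. The lineages overlapped for all 9 members, and 0% of tested arms showed no overlap.

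**Figure D2:**
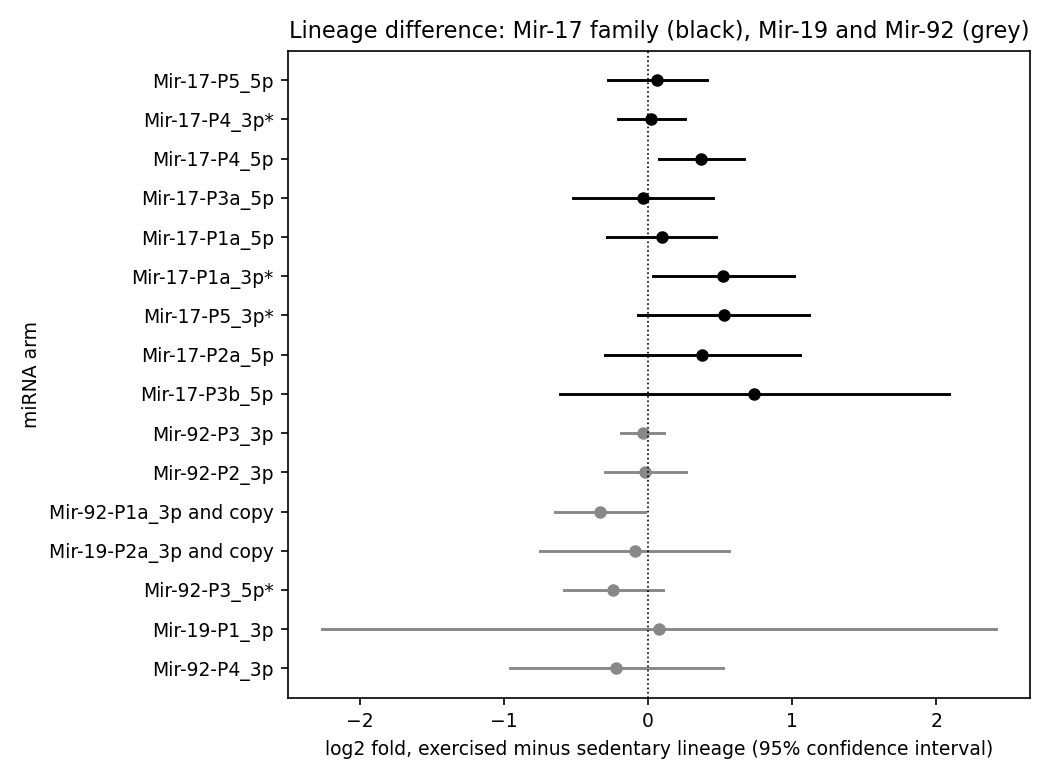
Fold between lineages (log2, exercised minus sedentary) with 95% confidence intervals from limma for the 9 Mir-17 family arms in black and the 7 tested Mir-19 and Mir-92 arms in grey. The intervals of P4_5p and P1a_3p* lie above 0, that of Mir-92-P1a_3p with its copy lies below 0, and none of these passes the adjusted threshold.

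Among the guides of the chromosome 14 cluster, the folds of miR-17 and miR-20a had intervals on both sides of 0 and moved with single libraries. Mir-17-P1a_5p (miR-17) ranged from 149 to 301 normalized counts with a median of 286 in the exercised lineage, and from 202 to 282 with a median of 222 in the sedentary lineage. Its fold was 0.09 (SE 0.17, 95% confidence interval -0.28 to 0.47, limma adjusted p = 0.894). It was 0.24 without F2_exercised replicate 1, where it moved most, and 0.038 without F2_exercised replicate 6. It was 0.33 without the R31 libraries and -0.14 without the R41 libraries. Mir-17-P3a_5p (miR-20a) ranged from 148 to 396 with a median of 393, and from 252 to 393 with a median of 342. In the exercised lineage 4 of 6 libraries lay between 392 and 396, and replicate 1 was at 148. The fold of miR-20a was -0.04 (SE 0.23, -0.52 to 0.45, limma adjusted p = 0.976). It turned to 0.19 without F2_exercised replicate 1, to 0.0011 and 0.013 without F2_sedentary replicates 1 and 2.

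Mir-17-P2a_5p (miR-18a), the member with the diverging seed, was supported by 6 to 33 reads per library. It ranged from 11.3 to 30.5 normalized counts with a median of 19.8 in the exercised lineage, and from 7.44 to 22.7 with a median of 16.8 in the sedentary lineage. Its fold was 0.38 (SE 0.31, 95% confidence interval -0.30 to 1.05, limma adjusted p = 0.648). It was 0.19 without F2_sedentary replicate 3 and 0.24 with a pseudocount of 10. It held 0.787% ± 0.393 of the family's normalized counts for the exercised lineage and 0.629% ± 0.231 for the sedentary lineage, a difference of 0.158 percentage points that was 0.00658 without F2_exercised replicate 1.

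Mir-17-P3b_5p (miR-20b), from the X-linked cluster, was the lowest member. It ranged from 6.37 to 18.5 with a median of 12.8 in the exercised lineage and from 0 to 15.4 with a median of 10.3 in the sedentary lineage. F2_sedentary replicate 3 is listed at 0, where the mean of the other 11 libraries corresponds to 9.73 reads. If 0 reads were truly counted there, up to 3.72 normalized counts are allowed (3 reads, counting error only). The smallest values listed stand for more than 1 read, and whether low counts were set to 0 is not known. The bound may therefore not hold. The fold was 0.74 (SE 0.63, -0.61 to 2.09, limma adjusted p = 0.650), and 0.14 without that library. It was 0.27 with a pseudocount of 10.

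Of the Mcm7 pair, Mir-17-P5_5p and the 3p arm of P4 had folds near 0, while the 5p arm of P4 had the smallest p of the family. Mir-17-P5_5p ranged from 727 to 1465 normalized counts with a median of 1369 in the exercised lineage, and from 1002 to 1388 with a median of 1134 in the sedentary lineage. Its fold was 0.06 (SE 0.16, 95% confidence interval -0.28 to 0.41), and 0.21 without F2_exercised replicate 1. It was 0.0089 without F2_exercised replicate 6, 0.28 without the R31 libraries and -0.15 without the R41 libraries. Mir-17-P4_5p ranged from 289.6 to 464 with a median of 329.7, and from 222 to 348 with a median of 252. All 6 exercised-lineage libraries lay above the sedentary median and 5 of 6 sedentary-lineage libraries below the exercised median, with F2_exercised replicate 6 the highest. The fold of Mir-17-P4_5p was 0.37 (SE 0.14, 0.07 to 0.66, limma adjusted p = 0.532), and its left-out range was 0.28 to 0.44.

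The passenger arms differed among themselves in the size of the fold. Mir-17-P4_3p* ranged from 422 to 544 with a median of 458 in the exercised lineage, and from 377 to 580 with a median of 455 in the sedentary lineage. Its fold was 0.02 (SE 0.11, -0.21 to 0.25), the narrowest interval of the family, and turned to -0.024 without F2_exercised replicate 2 and to -0.036 and -0.0060 without F2_sedentary replicates 1 and 2. Mir-17-P1a_3p*, with 18 to 73 reads per library, ranged from 28.6 to 67.5 with a median of 36.3, and from 21.9 to 31.7 with a median of 28.6. All 6 exercised-lineage libraries lay above the sedentary median, and F2_exercised replicate 1 was highest at 67.5. The fold of Mir-17-P1a_3p* was 0.52 (SE 0.23, 0.04 to 1.01, limma adjusted p = 0.532), and 0.37 without F2_exercised replicate 1, where the unadjusted p was no longer below 0.05. Mir-17-P5_3p*, with 9 to 33 reads, ranged from 16.96 to 32.8 with a median of 24.6, and from 10.7 to 28.1 with a median of 16.6. Its fold was 0.53 (SE 0.28, -0.07 to 1.12, limma adjusted p = 0.532). For 4 of 9 members the 95% confidence interval stayed inside 1.5-fold either way, against 58.9% of all tested arms.

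The submitters' sample codes begin with 1 of 4 stems, each on 3 libraries. R31 and R41 belong to the exercised lineage, S11 and S41 to the sedentary. The labels do not say what a stem stands for. Each stem holds 1 lineage only, so stem and lineage cannot be told apart. The mean of Mir-17-P4_5p was 339 in R31, 359 in R41, 262 in S11 and 279 in S41, so both exercised sets lay above both sedentary sets. The mean of Mir-17-P1a_3p* was 46.7, 35.7, 25.0 and 29.7 in the same order. Mir-17-P5_5p did not follow the lineages by set, with 1080, 1401, 1232 and 1090.1. For miR-18a the S11 set was low at 11.6, against 19.8 in R31, 21.2 in R41 and 20.2 in S41. If mice under 1 stem are related, the 6 of a lineage are not independent and the p-values are too small.

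Among the abundant guides, those of miR-17, miR-20a and P5, which come from chromosomes 14 and 5, varied together across the libraries. Pearson's r of log2(value + 1) between Mir-17-P5_5p and Mir-17-P3a_5p was 0.96 over 12 libraries (permutation p = 1e-05, the smallest the 100000 draws can give, adjusted 0.00036 over 36 pairs), with Spearman's rho of 0.87 (permutation p = 0.00043, adjusted 0.00756). It was 0.99 within the exercised and 0.89 within the sedentary lineage, and 0.92 without the 2 libraries farthest from the median of Mir-17-P5_5p. Between Mir-17-P5_5p and Mir-17-P1a_5p, r was 0.93 (permutation p = 0.0001, adjusted 0.0018) and rho 0.86 (permutation p = 0.00063, adjusted 0.00756). It was 0.99 and 0.68 within the lineages, and 0.85 without the 2 farthest libraries. Between Mir-17-P3a_5p and Mir-17-P1a_5p, r was 0.86 (permutation p = 0.00057, adjusted 0.00684) and rho 0.82 (permutation p = 0.00205, adjusted 0.0185). Within the lineages it was 0.97 and 0.49, and it was 0.70 without the 2 farthest libraries. Without F2_exercised replicate 1 this last r was 0.72, with an adjusted permutation p of 0.0616. With libraries scaled to equal totals these 3 values were 0.88, 0.89 and 0.73. How often pairs of other tested arms reach such values was not tested, so they are not shown to be particular to the family. F2_exercised replicate 1 was the lowest of 12 libraries for the guides of miR-17, miR-20a and P5. A further abundant guide, Mir-17-P4_5p, did not pass the threshold with any of these arms. Its r was 0.08 with Mir-17-P5_5p, -0.17 with Mir-17-P3a_5p and 0.15 with Mir-17-P1a_5p (adjusted permutation p = 0.951, 0.941 and 0.941). Without F2_exercised replicate 1 its r was 0.45, 0.09 and 0.47 in the same order.

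**Figure D3:**
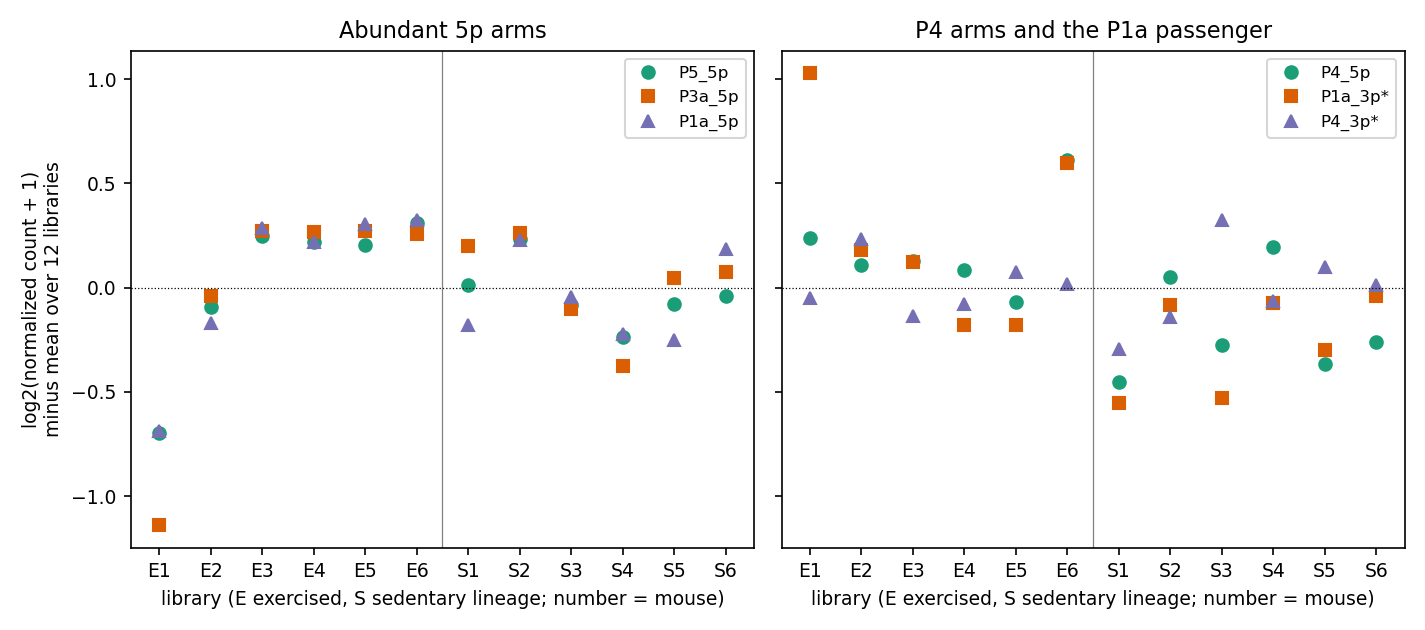
Deviation of log2(normalized count + 1) from the mean of the 12 libraries, for P5_5p, P3a_5p and P1a_5p on the left and P4_5p, P1a_3p* and P4_3p* on the right; E and S mark the exercised and sedentary lineage and the number the mouse. The 3 arms on the left lie close together in E2 to E6, are more spread in S1, S5 and S6, and are all lowest in E1, whereas on the right P1a_3p* is highest in E1 and P4_5p in E6.

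Most other pairs of arms did not pass the threshold. Of the 36 pairs of members, 4 had an adjusted permutation p below 0.05, and the share over pairs of all tested arms was not computed. The fourth joined Mir-17-P4_5p to Mir-17-P1a_3p*, arms of different hairpins on chromosomes 5 and 14. Their r was 0.77 (permutation p = 0.00291, adjusted 0.0262) and rho 0.87 (permutation p = 0.00055, adjusted 0.00756). It was 0.65 within the exercised and 0.69 within the sedentary lineage, and 0.65 without the 2 farthest libraries. Without F2_sedentary replicate 1 or 3, r was 0.72 and 0.74, with adjusted permutation p of 0.0860 and 0.0958. For arms of the same hairpin, no r passed the threshold. For Mir-17-P1a_5p and Mir-17-P1a_3p*, r was -0.27 (permutation p = 0.394, adjusted 0.709) and rho 0.10 (permutation p = 0.764, adjusted 0.939), and r was 0.43 without the 2 farthest libraries and 0.47 without F2_exercised replicate 1 alone. For Mir-17-P4_5p and Mir-17-P4_3p*, r was -0.04 (permutation p = 0.899, adjusted 0.951) and rho -0.07 (permutation p = 0.834, adjusted 0.939), and r was -0.22 without the 2 farthest and 0.42 with equal totals. For Mir-17-P5_5p and Mir-17-P5_3p*, r was -0.06 (permutation p = 0.854, adjusted 0.951) and rho -0.03 (permutation p = 0.938, adjusted 0.939), and r was 0.50 without the 2 farthest. The miR-18a and miR-20b rows and both low passenger arms rest on few reads, which limits any relation with them. Counting noise alone would give a coefficient of variation of 18.2% for Mir-17-P1a_3p*, 25.6% for Mir-17-P2a_5p and 30.3% for Mir-17-P3b_5p, where 37.4%, 34.6% and 48.7% were observed. The observed values also hold the spread between mice, and for Mir-17-P1a_3p* the library at 67.5, where the other 11 reach 49.9. For Mir-17-P5_5p counting noise would give 2.94%, and 17.6% was observed.

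**Figure D4:**
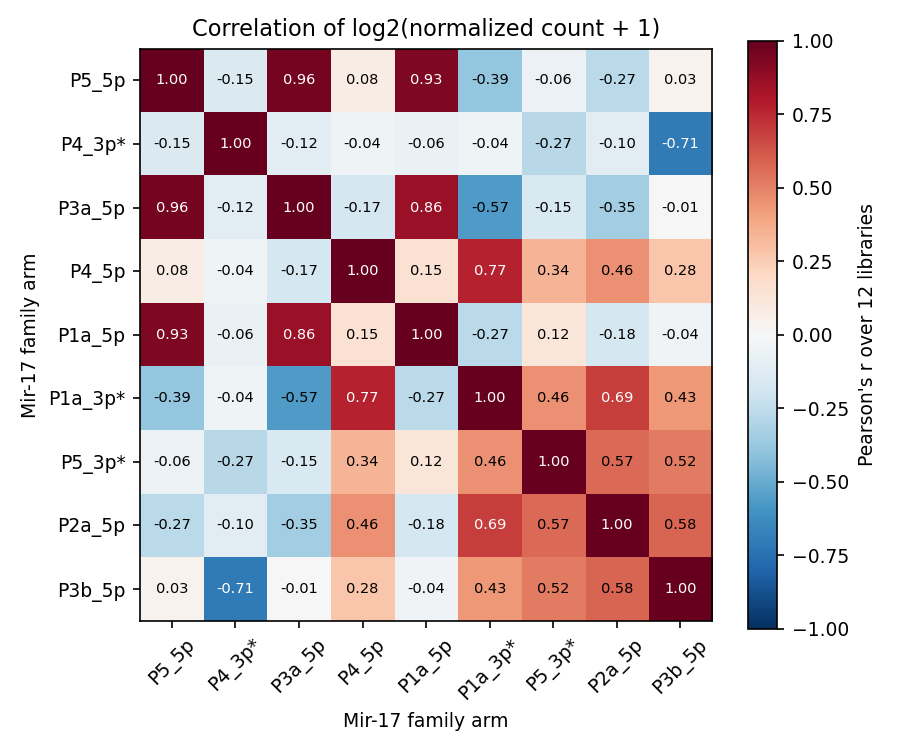
Pearson's r between the 9 Mir-17 family arms over 12 libraries, on log2(normalized count + 1). P5_5p, P3a_5p and P1a_5p form a block with r of 0.86 to 0.96, and P4_5p with P1a_3p* has 0.77.

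The balance between the arms of a hairpin differed widely within the family. The ratio of the 5p to the 3p arm ran from 23.8 to 104 for P5 and from 2.21 to 10.4 for P1a over the 12 libraries. For P4 it ran from 0.432 to 0.991, so in normalized counts the arm marked as passenger exceeded the guide in 12 of 12 libraries. How evenly the library preparation captured different sequences was not tested. Among the 141 hairpins with 1 guide and 1 passenger row of their own, the passenger had the higher mean in 26 (18.4%) and was higher in all 12 libraries in 15 (10.6%). As a difference of log2(value + 1), the ratio of P1a was 2.63 ± 0.81 in exercised-lineage and 3.06 ± 0.23 in sedentary-lineage mice (SD, n = 6 per lineage), a difference of -0.43 (exact permutation p = 0.249, two-sided, adjusted 0.249 over 3 hairpins), and -0.13 without F2_exercised replicate 1. That of P5 was 5.59 ± 0.64 against 6.05 ± 0.48, a difference of -0.46 (exact permutation p = 0.190, adjusted 0.249), and -0.25 without F2_exercised replicate 1. That of P4 was -0.43 ± 0.28 against -0.78 ± 0.35, a difference of 0.35 (exact permutation p = 0.0714, adjusted 0.214), with 6 of 6 exercised-lineage libraries above the sedentary median. None of the 3 differences passed the threshold. F2_exercised replicate 1 had the lowest ratio of all 12 libraries for P1a, at 2.21, and for P5, at 23.8.

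**Figure D5:**
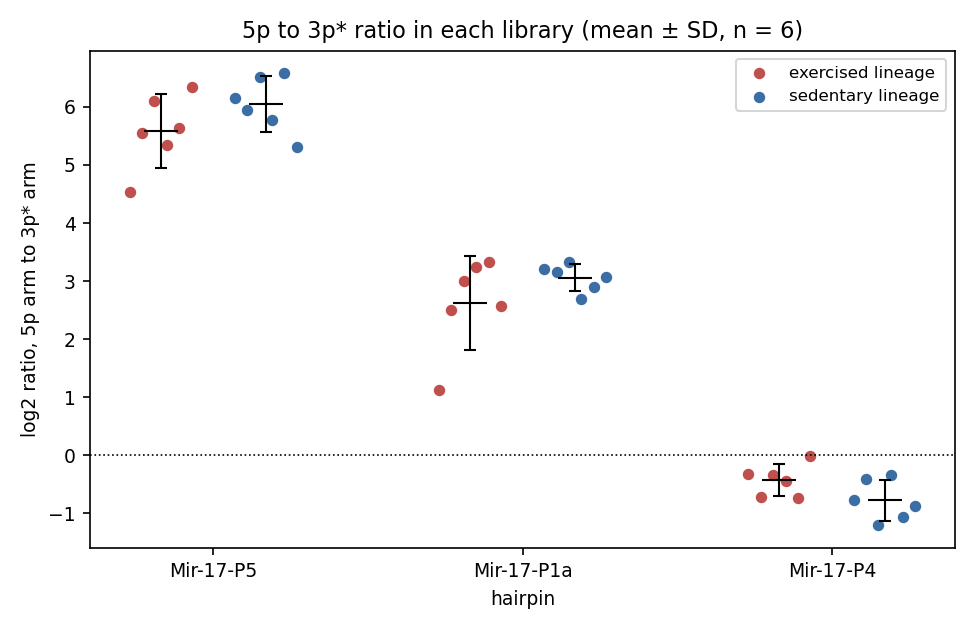
Log2 ratio of the 5p to the 3p passenger arm in each library for the hairpins P5, P1a and P4; points are libraries and bars the mean and SD of 6. All 12 libraries lie above 0 for P5 and P1a and below 0 for P4, and the lineages overlap for each hairpin.

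As a share of the family, given with no test, the arms kept the same leading member in both lineages. Mir-17-P5_5p held 44.6% ± 4.24 of the family's normalized counts under exercised grandfathers and 45.7% ± 2.30 under sedentary ones (SD, n = 6 per lineage). Mir-17-P4_5p held 12.9% ± 2.98 against 10.7% ± 2.17, and Mir-17-P4_3p* 17.4% ± 3.54 against 18.4% ± 3.10. Without F2_exercised replicate 1 the differences, exercised minus sedentary, were 0.385 percentage points for Mir-17-P5_5p in place of -1.17, 1.18 for Mir-17-P4_5p in place of 2.22, and -2.04 for Mir-17-P4_3p* in place of -0.987. The difference of Mir-17-P4_3p* was -0.0679 without F2_sedentary replicate 3. F2_exercised replicate 1 had the lowest share of all 12 libraries for Mir-17-P5_5p, at 36.8%, for Mir-17-P3a_5p, at 7.49%, and for Mir-17-P1a_5p, at 7.53%. It had the highest for Mir-17-P4_5p, at 18.1%, and for all arms of the lowest tier. These were Mir-17-P1a_3p* at 3.42%, Mir-17-P5_3p* and Mir-17-P2a_5p at 1.54% each, and Mir-17-P3b_5p at 0.936%.

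Other miRNAs of these clusters belong to the Mir-19 and Mir-92 families. All rows of both families were taken by name, and whether each lies in a cluster with Mir-17 was not checked. Of the 9 rows of these families 7 were tested, 0 were called and 1 had an unadjusted p below 0.05, with a fold below 0. Over all 474 tested arms 0 were called and 7.17% had such a p, 3.59% with a fold below 0. The folds of the 7 tested rows were below 0 for 6 and above 0 for 1, with a median of -0.09. Of all tested arms 49.8% had a fold above 0, with a median of -0.0013. The row shared by Mir-92-P1a_3p and its copy stood at 1123 ± 253 against 1389 ± 153 normalized counts, a fold of -0.33 (SE 0.14, limma adjusted p = 0.532). Mir-92-P3_3p had a fold of -0.04, Mir-92-P2_3p of -0.02 and the Mir-19-P2a_3p row with its copy of -0.09. The Mir-19-P2a_3p row was at 92.5 in F2_exercised replicate 1, its lowest value.

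Outside the Mir-17, Mir-19 and Mir-92 families, the arms most like the summed Mir-17 family level were sought among 458 tested rows. The measure was Pearson's r over the 12 libraries. These values are a description of the highest among many. They were Mir-193-P2a_3p with its copy (r 0.94, rho 0.92), Mir-384_5p* (0.91, 0.86), the row shared by Mir-455-v1_5p and 455-v2_5p*, which the names mark as variants v1 and v2 of one hairpin (0.89, 0.80), Mir-148-P2_5p* (0.87, 0.83) and Mir-154-P6_3p (0.86, 0.78). All 5 were lowest in F2_exercised replicate 1, with Mir-193-P2a_3p at 39.8 normalized counts there and 56.4 to 159.6 in the other 11 libraries, and Mir-384_5p* at 1172 there and 1469 to 2498 in the others.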

How the data were processed

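Hippocampal small RNA libraries came from 6 exercised-lineage and 6 sedentary-lineage mice, grouped by sample title. Per the labels, RNA was extracted with a Qiagen miRNA kit and libraries were made with an NEB Next small RNA kit. The labels name no molecular identifiers, so intervals and floors cover counting error only. As deposited, the signal of an arm is its reads after division by a size factor common to the library. Bowtie 1.3.0, mm10 and DESeq2 are named, with no role, in the submitters' processing notes. All values (100%) are whole multiples of 1 step per library within 0.01, which gave the reads behind each value. The smallest values stand for more than 1 step, so no count model was fitted.

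Lineages were compared with limma 3.58.1 in R 4.3.3 on log2(value + 1), with a mean-variance trend and Benjamini-Hochberg adjustment, over the 474 of 513 rows with a mean of at least 10. All 9 members passed this filter. Arm ratios were compared by exact permutation over 924 assignments, levels by exact sign flips over 4096 patterns and correlations by 100000 permutations, in Python 3.11.15. These steps were tested on simulated data. Alternatives covered the pseudocount, filter, scaling, replicate block and left-out libraries. Shares of the family were given without the tests first planned, because they sum over members. Named rows were all members, the 4 most abundant Mir-19 and Mir-92 rows and the 5 rows most like the family sum. The members and lists were chosen with earlier results of these data known. Titles number the mice, and whether mice of a lineage share a litter is not stated. Coordinates come from GENCODE M21 (mm10), matched by gene symbol.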

Additional observations from a re-analysis of the deposited data

Results flagged for a closer look

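In F2_exercised replicate 1, Mir-17-P3a_5p (miR-20a) stood at 148 normalized counts, far below the next lowest exercised-lineage library at 318 and the highest at 396. In F2_sedentary replicate 2, the family held 0.0351% of all normalized counts, far above the next highest sedentary-lineage library at 0.0297% and the lowest at 0.0274%. In both cases the gap to the nearest library, divided by the range of the 6, exceeded Dixon's 95% critical value. Among 28 groups of 6 values examined, 2 held such a library, and chance gives about 1 in 20.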

How the results depend on the processing

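No tested arm and no Mir-17 family arm was called under any limma alternative run. The count of members at an unadjusted p below 0.05, 2 as reported, was 1 with a mean of at least 100 (5 members tested), 1 with equal totals, 1 with upper-quartile scaling, 1 with the replicate block, 1 without the S41 libraries and 0 without the S11 libraries. The count over all tested arms, 34 of 474 as reported, changed as well. It was 26 of 319, 31 of 475 and 25 of 475 in the first 3 of these settings. With the replicate block it was 16 of 474, without S41 19 of 472 and without S11 16 of 475. Leaving out each library in turn gave 1 to 3 members, namely 1 without F2_exercised replicate 1 or F2_sedentary replicate 1, 3 or 5 and 3 without F2_sedentary replicate 6. Over all tested arms it gave 17 to 48, with 23 of 475 without F2_sedentary replicate 6. An equal count of members did not always mean the same arms. Without the R31 libraries the 2 were Mir-17-P1a_5p (fold 0.33) and Mir-17-P5_5p (0.28), of 8 members tested, against 47 of 470 tested arms. Without F2_exercised replicate 6 they were Mir-17-P4_5p and Mir-17-P5_3p*, against 17 of 474. Equal totals moved the median fold of all tested arms from -0.0013 to 0.085. For Mir-17-P3a_5p the fold was 0.051 with equal totals, below that median, and turned to 0.25 without the R31 and 0.067 without the S11 libraries, and ran from -0.11 to 0.19 with 1 library left out. That of Mir-17-P4_3p* turned to -0.0061 without the S11 libraries and ran from -0.036 to 0.088. Without the R41 libraries the folds of Mir-17-P1a_5p and Mir-17-P5_5p were -0.14 and -0.15. Mir-17-P5_5p was at -0.022 without the S41 and Mir-17-P2a_5p at -0.027 without the S11 libraries. A pseudocount of 10 lowered the folds of Mir-17-P2a_5p to 0.24 and Mir-17-P3b_5p to 0.27. The cause was not tested.

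Mouse numbers did not pair the libraries: the correlation of deviations between same-numbered mice ran from -0.17 to 0.15, and 1 of 6 exercised-lineage libraries correlated best with its own number. The count models planned on recovered reads were not run, as the smallest values do not start at 1 read. With 6 to 33 reads, Mir-17-P2a_5p had a 95% confidence interval from -0.30 to 1.05, which holds both 0 and the fold of Mir-17-P4_5p, 0.37.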
